A study of Mus musculus with 9 samples.

Results

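The genes described here encode the complement and coagulation factors that the liver makes for the blood plasma. They were chosen as a fixed list of 41 symbols, with earlier results of these data known. Of these symbols 40 have a row in the deposited table of 49585 genes. The level of Klkb1, the gene of plasma prekallikrein, was not analysed here. Of the 40, 22 belong to complement and 18 to coagulation, and all 40 had enough exon reads to be tested among 11884 genes. All mice were male C57BL/6J, were 14 weeks old and had spent about 35 days in 1 of 3 conditions, each measured in 3 liver libraries. Microgravity mice (MG) lived on the International Space Station. Artificial gravity mice (AG) lived on the station in a centrifuge run at 77 rpm, which gave 1 g. Ground control mice (GC) stayed at 1 g on Earth, in Tsukuba, in housing made to match. Flight mice were bought from the Jackson Laboratory and ground mice from Charles River Laboratories, and flight mice were killed 2 days after splashdown. Supplier, launch, landing and flight therefore cannot be told apart in any comparison with GC. Each flight group held 6 animals, and the labels do not say which animals gave the libraries. The p-values reflect how these libraries vary, which may be partly technical.

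Complement is a set of plasma proteases and their substrates that marks microbes and dead cells. The classical and lectin pathways start it by cleaving C4 and C2, the alternative pathway amplifies it through factor B, and all of them cleave C3. The terminal components C5 to C9 then assemble into the membrane attack complex, a pore in the target membrane. Coagulation is a second protease cascade, in which vitamin K dependent factors and their cofactors activate thrombin, and thrombin turns fibrinogen into fibrin. Hepatocytes make most of these proteins, and several of them, C3 and fibrinogen among them, are known to rise in the acute phase response. Several terminal components are known to be more abundant in the plasma of male than of female mice.

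Between MG and GC, 5 of the 40 genes passed the test, and all 5 were complement genes. C3, the central component, rose, while C4a, C6, C8b and C9 fell. The promoters of 4 of the 5 are shown because these genes moved between the same groups of libraries; C4a had no entry in the promoter table. The sequences are from RefSeq on GRCm38.p6 and run from 250 bases before the start of the gene to 50 bases after it. Capitals mark matches to motifs of liver transcription factors, searched on both strands.
C3, chr17:57228087-57228386, minus strand: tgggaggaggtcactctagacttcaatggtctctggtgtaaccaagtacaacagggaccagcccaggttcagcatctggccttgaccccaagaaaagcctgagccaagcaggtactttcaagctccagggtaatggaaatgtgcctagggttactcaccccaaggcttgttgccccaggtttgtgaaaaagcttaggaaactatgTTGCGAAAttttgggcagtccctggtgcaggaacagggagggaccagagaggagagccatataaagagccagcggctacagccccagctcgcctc
C6, chr15:4726960-4727259, plus strand: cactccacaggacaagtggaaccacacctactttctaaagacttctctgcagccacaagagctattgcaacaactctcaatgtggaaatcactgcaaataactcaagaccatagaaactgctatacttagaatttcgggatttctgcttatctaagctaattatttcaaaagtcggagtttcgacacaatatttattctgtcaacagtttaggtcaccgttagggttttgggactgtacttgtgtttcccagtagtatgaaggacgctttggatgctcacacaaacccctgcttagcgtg
C8b, chr4:104766067-104766366, plus strand: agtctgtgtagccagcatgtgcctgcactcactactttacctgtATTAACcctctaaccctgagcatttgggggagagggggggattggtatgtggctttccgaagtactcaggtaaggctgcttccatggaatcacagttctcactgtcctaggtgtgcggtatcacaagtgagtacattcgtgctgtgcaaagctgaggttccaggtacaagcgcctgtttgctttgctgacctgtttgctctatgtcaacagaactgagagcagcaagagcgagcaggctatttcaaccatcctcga
C9, chr15:6445096-6445395, plus strand: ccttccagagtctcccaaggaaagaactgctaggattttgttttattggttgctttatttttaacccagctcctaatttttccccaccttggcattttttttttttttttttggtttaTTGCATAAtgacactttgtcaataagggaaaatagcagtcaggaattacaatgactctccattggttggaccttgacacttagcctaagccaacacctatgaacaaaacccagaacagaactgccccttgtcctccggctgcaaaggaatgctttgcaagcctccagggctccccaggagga
The capitals in C3 and C9 are each a match to the C/EBP motif TTGCNNAA, and the capitals in C8b are the HNF1 half-site GTTAAT read on the other strand. The window of C6 holds neither, and none of the 4 windows holds the HNF4 half-site CAAAGTCC or the STAT motif TTCNNNGAA. The table has 32 promoters for 30 of the 41 symbols, Klkb1 among them. The HNF1 half-site was in 34.4% of these 32 and in 7.1% of all 32851 promoters, and the C/EBP motif in 31.25% and 10.8%. The STAT motif was in 21.9% and 8.3%, and the HNF4 half-site in 0 and in 1.42%. A match describes letters in a window and is no evidence of binding.

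The libraries held between 6194521 and 8957331 gene counts, and the 40 genes took between 3.97% and 5.29% of them. Levels are given as CPM, the counts of a gene scaled to the library total with TMM factors, and 3 reads correspond to between 0.335 and 0.484 CPM. Skeletal muscle genes, 12 in all, summed to 698 CPM in GC 2, 468 CPM in MG 2, 232 CPM in GC 1 and 91.8 CPM in AG 1, against 0.45 to 16.6 CPM in the other libraries. The summed CPM of 12 macrophage markers was 1446 in AG 1 and between 293 and 395 elsewhere. Clec4f, one of the 12, did not share this, at 78.7 CPM in AG 1 and 66.8 to 91.1 CPM elsewhere. The other listed markers were each highest in AG 1. Hepatocyte markers were high throughout, with a summed CPM of 105400 to 142000 over 10 genes, of which albumin makes up the most. Of these 10 genes 4 had a log2 fold change above 0 from GC to MG and 6 below 0, and edgeR called 0, with 4 at an unadjusted p below 0.05, while DESeq2 called 2. All 6 tested bile duct markers had a log2 fold change below 0 in MG, with a median of -0.77, and their summed CPM was 28.7 to 29.3 in MG against 37.8 to 49.3 in GC. EdgeR, DESeq2 and limma-voom called none of these 6, and 1 had an unadjusted p below 0.05 by edgeR. Of all 11884 tested genes 5804 had a log2 fold change below 0 in MG. Of 7 tested red cell and platelet genes 6 were below 0, and Alas2, the heme synthesis enzyme of red cell precursors, was called lower (log2 fold change -0.92, edgeR adjusted p = 0.014). The part of these differences in the results below was not tested beyond leaving libraries out. In bulk liver, fewer cells of a type and less RNA per cell cannot be told apart.

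Per kilobase of exon, the mean level in GC was highest for C3 at 1883 CPM per kb. Next came the fibrinogen chains Fga at 1293 and Fgg at 1181 CPM per kb, then vitronectin (Vtn) at 1040 and Fgb at 909. The lowest levels were those of C4a at 10.9, C2 at 20.0 and factor XI (F11) at 23.3 CPM per kb. Replicates of GC agreed closely, with a median coefficient of variation of 5.73% over the 40 genes against 11% over all tested genes and 7.24% over the 4123 genes within their range of levels. In MG the median was 10.8%, against 11.8% over all tested genes and 8.27% over those in the same range of levels. In AG it was 8.08%, against 15.1% and 10.6%.

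**Figure D1:**
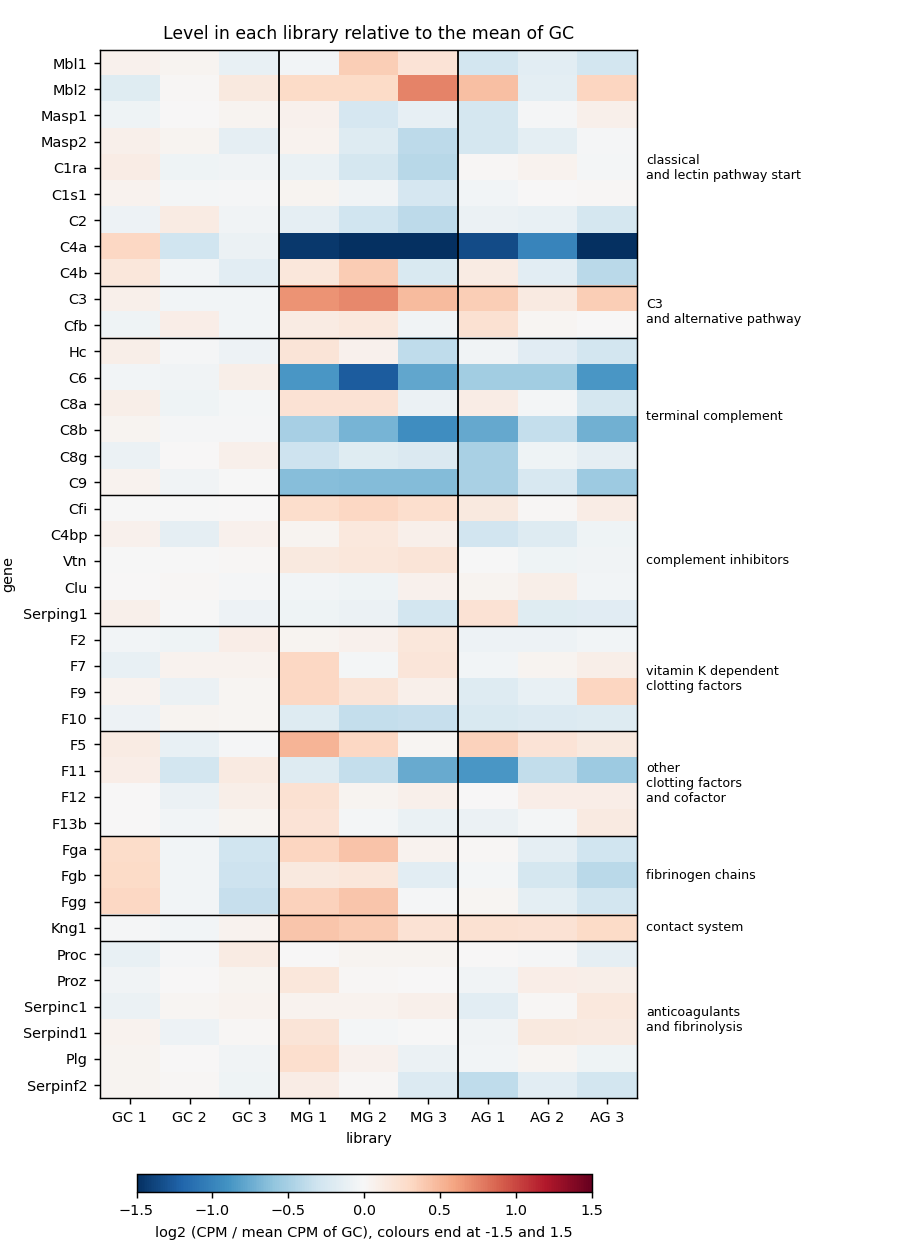
Level of each of the 40 genes in each library as log2 of its CPM over the mean CPM of GC, with genes in rows by role and libraries in columns by group. C4a, C6, C8b and C9 are blue in all 6 flight libraries and C3 is red in all 6.

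Among the 40 genes, 1 was called higher in MG than in GC and 4 were called lower, by edgeR's quasi-likelihood test at a Benjamini-Hochberg adjusted p below 0.05 over all tested genes. Of all tested genes 0.547% were called higher and 0.841% lower. The list was chosen with earlier results of these data known, so this contrast is not independent of the data. All MG libraries lay above all GC libraries for 6 of the 40 genes and below them for 8, against 11.9% and 11.3% of all tested genes. The median log2 fold change of the 40 was 0.06, that of all genes 0.01, and 32 of the 40 had a log2 fold change within 0.3 of 0. Of the 22 complement genes 5 were called. Of the 18 coagulation genes edgeR and limma-voom called 0, with 4 at an unadjusted p below 0.05, as were 13.9% of all tested genes, and DESeq2 called F10 lower and Kng1 higher. Over the 40 genes DESeq2 called 3 higher and 5 lower, where it called 1.44% of all genes higher and 1.85% lower. Limma-voom called 1 and 4, where it called 0.496% and 0.816% of all genes. The calls depended on single libraries: without GC 2, without MG 2, or without GC 1, GC 2 and MG 2 together, edgeR called none of the 40. Calls over all genes fell as well, to 6 higher and 15 lower without GC 2, to 13 higher and 15 lower without MG 2, and to 0 of 12387 genes, with 541 at an unadjusted p below 0.05, without the 3 libraries. Without these 3 libraries, which hold the most muscle transcripts, GC 3 is the only GC library and is assumed to vary like the others. The log2 fold changes from GC to MG were then 0.61 for C3, -2.05 for C4a, -0.93 for C6, -0.69 for C8b and -0.66 for C9.

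C3 is the protein that every complement pathway cleaves. Its level was 10216, 9423 and 9407 CPM in GC 1 to 3, 15429, 15966 and 13481 CPM in MG 1 to 3, and 12474, 10616 and 12547 CPM in AG 1 to 3. Every MG library was above every AG library, and every AG library above every GC library. C3 (ENSMUSG00000024164, GRCm38 chr17:57203970-57228136) rose 1.54-fold from GC to MG, with a log2 fold change of 0.63 ± 0.12 (SE, n = 3 per group, edgeR adjusted p = 0.031). Leaving out 1 library at a time moved the log2 fold change only between 0.57 and 0.70. The call was lost without GC 1, GC 2, GC 3, MG 1 or MG 2. Factor B (Cfb), which joins C3b to form the alternative pathway convertase, was between 600 and 676 CPM in GC, 609 and 701 CPM in MG, and 632 and 739 CPM in AG. These ranges overlap, and its log2 fold change in MG was 0.08 ± 0.11 (edgeR adjusted p = 0.80). Only 6.7% of the exon reads of Cfb were assigned to it uniquely, and the predicted gene Gm20547 covers it on the same strand, so its level is uncertain.

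C4a, also called Slp or sex-limited protein, is the near copy of the C4 gene C4b. It lies 65.2 kb from C4b on chromosome 17, and the longest transcripts of the pair are identical at 96.1% of 5367 aligned bases in GENCODE M21, which lists C4a as a processed transcript. The window of 60 bases in which they differ most is printed to show how reads can tell them apart, with the 13 differing bases in capitals.
C4a, transcript bases 2755 to 2814: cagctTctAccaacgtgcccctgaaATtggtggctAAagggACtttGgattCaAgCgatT
C4b, transcript bases 2761 to 2820: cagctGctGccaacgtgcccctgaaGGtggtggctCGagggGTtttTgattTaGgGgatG
Of the stretches of 75 bases in the C4a transcript, 23.6% occur unchanged in that of C4b, and 75.1% of the exon reads of C4a were uniquely assigned.

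The level of C4a was 84.0, 55.0 and 63.8 CPM in GC, 24.8, 12.1 and 5.81 CPM in MG, and 26.7, 34.1 and 14.2 CPM in AG. All 6 flight libraries were below all GC libraries, and MG and AG overlapped. C4a (ENSMUSG00000015451, GRCm38 chr17:34809092-34823464) fell by 2.235 ± 0.43 on the log2 scale from GC to MG (SE, n = 3 per group, edgeR adjusted p = 0.032), the largest change among the 40 genes. The MG libraries differed from each other more for C4a than for any other of these genes, with a coefficient of variation of 67.9%. The value lay between -2.91, without MG 1, and -1.87, without MG 3, when 1 library was left out. The call was lost without GC 1, GC 2, GC 3, MG 2 or MG 3. C4b itself was at 1679, 1446 and 1334 CPM in GC, 1674, 1940 and 1272 CPM in MG, and 1621, 1333 and 1121 CPM in AG. Its groups overlap, with a log2 fold change of 0.13 ± 0.18 in MG (edgeR adjusted p = 0.81).

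Within the pair, C4a made up 4.76% of the counts of C4a and C4b together in GC 1 (95% exact binomial interval 4.43 to 5.12), 3.66% in GC 2 (3.29 to 4.06) and 4.56% in GC 3 (4.15 to 5.01). The share was 1.46% in MG 1 (1.27 to 1.66), 0.619% in MG 2 (0.502 to 0.755) and 0.455% in MG 3 (0.33 to 0.61). In AG it was 1.62% (1.39 to 1.88), 2.49% (2.21 to 2.8) and 1.25% (1.01 to 1.53). Every flight interval lay below every GC interval. The counts of C4a behind these shares ran from 44 in MG 3 to 716 in GC 1. Such intervals cover counting error only, and understate it where several reads stem from 1 molecule. They cover neither the variation between libraries nor how reads that match both genes were assigned.

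Apart from C4a, the list holds 8 genes that start the classical and lectin pathways, C4b among them, and none of these was called in MG. Mbl2, a mannose-binding lectin, was at 240, 277 and 302 CPM in GC, 333, 334 and 459 CPM in MG, and 374, 246 and 342 CPM in AG. All MG libraries were above all GC libraries, but the log2 fold change of 0.46 ± 0.17 had an edgeR adjusted p of 0.27. Mbl1, the second mannose-binding lectin, had an MG mean of 193 ± 27.1 CPM and a GC mean of 169 ± 10.6 CPM (SD, n = 3), with overlapping libraries. C2, the protease that pairs with C4b in the classical convertase, was 73.4 to 84.1 CPM in GC and 58.9 to 70.6 CPM in MG. C1ra, one of the C1 proteases, was 247 to 279 CPM in GC and 193 to 241 CPM in MG. For both genes every MG library was below every GC library, with log2 fold changes of -0.27 ± 0.10 and -0.25 ± 0.10 that were not called (edgeR adjusted p = 0.26 and 0.30). C1s1, the partner protease of C1r, was 253 to 269 CPM in GC and 217 to 268 CPM in MG. The lectin pathway proteases Masp1 and Masp2 were 113 to 122 and 107 to 123 CPM in GC, and 99.4 to 124 and 88.6 to 121 CPM in MG. These 3 genes had log2 fold changes between -0.17 and -0.08 with overlapping groups. Levels of C2, C1ra and C1s1 are less certain, since 44.2%, 55.1% and 56.2% of their exon reads were uniquely assigned. The same holds for Masp2, with 72.1% uniquely assigned, which overlaps Tardbp on the other strand.

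Of the 6 terminal complement genes, 3 fell in MG and none rose. C6 joins C5b in the first step of pore assembly. Its level was 382, 379 and 420 CPM in GC, 214, 166 and 229 CPM in MG, and 275, 275 and 214 CPM in AG. All 6 flight libraries were below all GC libraries. C6 (ENSMUSG00000022181, GRCm38 chr15:4727175-4815456) fell by 0.95 ± 0.14 on the log2 scale from GC to MG (SE, n = 3 per group, edgeR adjusted p = 0.011), and MG held 0.517 times the GC level. Of the single libraries, leaving out GC 2 or MG 2 lost the call, and the log2 fold changes lay between -1.05 and -0.84.

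C9 forms the wall of the pore. Its level was 642, 600 and 621 CPM in GC, 399, 395 and 394 CPM in MG, and 442, 527 and 424 CPM in AG. The groups did not overlap in any comparison, MG being lowest and GC highest. The 3 MG libraries differed by a coefficient of variation of 0.612%, the smallest of the 40 genes in MG. C9 (ENSMUSG00000022149, GRCm38 chr15:6445327-6498751) fell by 0.65 ± 0.10 on the log2 scale (SE, n = 3 per group, edgeR adjusted p = 0.014), to 0.638 times the GC level. The call was lost without GC 1, GC 2, GC 3, MG 2 or MG 3, although the log2 fold change stayed between -0.67 and -0.63.

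C8 is built from 3 chains encoded by C8a, C8b and C8g, and these did not move alike. C8b was at 406, 392 and 390 CPM in GC, 280, 243 and 207 CPM in MG, and 233, 308 and 240 CPM in AG. All flight libraries were below all GC libraries. C8b (ENSMUSG00000029656, GRCm38 chr4:104766317-104804548) fell by 0.70 ± 0.14 on the log2 scale from GC to MG (SE, n = 3 per group, edgeR adjusted p = 0.035). That call was lost without GC 1, GC 2, GC 3, MG 2 or MG 3, with log2 fold changes between -0.81 and -0.60. C8a, whose gene lies 11.1 kb away and is read towards C8b, was at 889, 796 and 822 CPM in GC, 974, 970 and 787 CPM in MG, and 906, 822 and 698 CPM in AG. These groups overlap, and the log2 fold change in MG was 0.12 ± 0.13 (edgeR adjusted p = 0.73). C8g was 234 to 262 CPM in GC and 201 to 220 CPM in MG, apart but not called, with a log2 fold change of -0.24 ± 0.12 (edgeR adjusted p = 0.41).

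The ratio of C8b to C8a per kilobase was 0.652, 0.704 and 0.677 in GC, 0.41, 0.358 and 0.376 in MG, and 0.367, 0.536 and 0.492 in AG. The GC ratios lay above all flight ratios, and those of MG and AG overlapped. The difference of MG from GC had a two-sided exact permutation p of 0.1, the smallest that 3 against 3 libraries allow. This ratio uses the same counts that gave the call of C8b, so it is no separate evidence. The ratio of C8g to C8a was 0.728 ± 0.0758 in GC, 0.572 ± 0.0809 in MG and 0.658 ± 0.164 in AG (SD, n = 3), with overlapping groups. Hc, the gene of C5, was 1064 to 1189 CPM in GC, 863 to 1279 CPM in MG and 926 to 1084 CPM in AG, with a log2 fold change of -0.02 ± 0.14 in MG (edgeR adjusted p = 0.97).

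**Figure D2:**
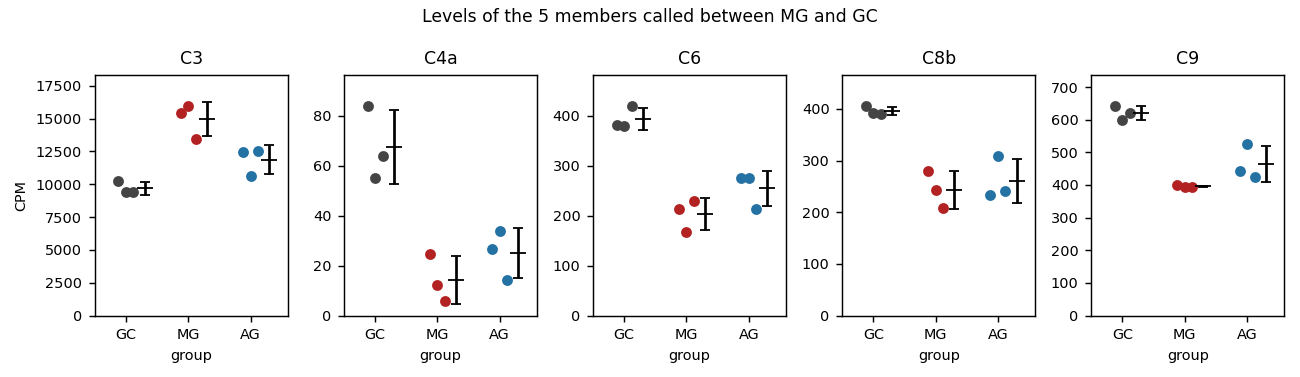
CPM of C3, C4a, C6, C8b and C9, with 1 point per library by group and the mean with SD (n = 3) beside the points; each axis starts at 0. MG and GC do not overlap in any panel, and the AG libraries lie on the same side of GC as those of MG.

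The 5 complement inhibitors on the list were not called in MG. Factor I (Cfi), which cleaves C3b and C4b, had the smallest p of the group. It was at 535, 539 and 543 CPM in GC, 648, 667 and 643 CPM in MG, and 595, 547 and 580 CPM in AG. MG was above AG and AG above GC in every library, with a log2 fold change of 0.28 ± 0.08 from GC to MG (SE, n = 3 per group, edgeR adjusted p = 0.16). DESeq2 called this gene. Vitronectin, which keeps the C5b to C7 complex from inserting into membranes, had group means of 2111 ± 20.2 CPM in GC, 2381 ± 40.7 CPM in MG and 2049 ± 45.4 CPM in AG (SD, n = 3). The MG libraries were apart from the others, and the log2 fold change of 0.17 ± 0.09 from GC to MG was not called (edgeR adjusted p = 0.42). Clusterin (Clu), which also binds the assembling pore, was 1434 to 1471 CPM in GC and 1396 to 1521 CPM in MG. C4bp, a cofactor of factor I, was 403 to 466 CPM in GC and 459 to 497 CPM in MG. Clu, C4bp and C1 inhibitor (Serping1) had log2 fold changes between -0.14 and 0.09 with overlapping groups. Serping1 was highest in AG 1, the library richest in macrophage markers, at 766 CPM against 579 and 586 CPM in the other AG libraries. A link between Serping1 and these markers was not tested.

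Of the vitamin K dependent clotting factors, none was called in MG. Factor X (F10), which together with factor V activates prothrombin, was at 399, 431 and 430 CPM in GC, 368, 327 and 331 CPM in MG, and 358, 363 and 366 CPM in AG. All flight libraries were below all GC libraries. The log2 fold change from GC to MG was -0.30 ± 0.09 (SE, n = 3 per group, edgeR adjusted p = 0.15), and DESeq2 called this gene lower. Its neighbours on chromosome 8 did not share this: F7, 1.5 kb upstream and at 77.8 to 87.4 CPM in GC and 82.2 to 104 CPM in MG, had a log2 fold change of 0.16 ± 0.10 and Proz, 4.2 kb downstream, of 0.07 ± 0.09, with overlapping groups. Prothrombin (F2) was 1600 to 1796 CPM in GC and 1721 to 1880 CPM in MG. F9, on the X chromosome, was 170 to 187 CPM in GC and 191 to 223 CPM in MG, apart but not called, with a log2 fold change of 0.20 ± 0.13 (edgeR adjusted p = 0.57).

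The other clotting factors were not called in MG. Factor XI had the smallest p, with 56.1, 43.3 and 57.5 CPM in GC, 45.6, 40.9 and 31.0 CPM in MG, and 28.5, 40.4 and 35.9 CPM in AG. Its MG and GC libraries overlapped and its AG libraries were all below GC. The log2 fold change was -0.42 ± 0.17 in MG (edgeR adjusted p = 0.31) and -0.58 ± 0.17 in AG (edgeR adjusted p = 0.34). Factor V (F5), the cofactor of factor X, had a log2 fold change of 0.30 ± 0.13 in MG (edgeR adjusted p = 0.35), with group means of 824 ± 70.6 CPM in GC and 1012 ± 168 CPM in MG (SD, n = 3). Factor XII (F12) was 442 to 498 CPM in GC and 485 to 549 CPM in MG, and F13b, the carrier subunit of factor XIII, was 182 to 192 CPM in GC and 175 to 216 CPM in MG. Both overlapped, with log2 fold changes of 0.12 and 0.03.

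The 3 fibrinogen genes lie within one cluster on chromosome 3 and varied together across libraries. Fga was at 4720, 3781 and 3175 CPM in GC, 4883, 5238 and 4049 CPM in MG, and 3936, 3545 and 3154 CPM in AG. Fgb was at 4229, 3355 and 2800 CPM in GC, 3816, 3887 and 3101 CPM in MG, and 3381, 2884 and 2616 CPM in AG. Fgg was at 3057, 2409 and 1951 CPM in GC, 3139, 3296 and 2433 CPM in MG, and 2530, 2236 and 2050 CPM in AG. In each group the 3 chains ranked the libraries alike: GC 1 was highest and GC 3 lowest, MG 2 highest and MG 3 lowest, and AG 1 highest and AG 3 lowest. Of all tested genes 0.968% had this order in all 3 groups, and of the 40 genes described here C4b was the only other one. The GC and MG groups overlap for all 3 chains. Their log2 fold changes in MG were 0.28 ± 0.16 for Fga, 0.06 ± 0.17 for Fgb and 0.26 ± 0.17 for Fgg, and none was called (edgeR adjusted p = 0.49, 0.92 and 0.57).

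The ratios between the chains were taken within each library. The ratio of Fgb to Fga per kilobase was 0.708, 0.701 and 0.697 in GC, 0.617, 0.586 and 0.605 in MG, and 0.679, 0.643 and 0.655 in AG. The 3 groups did not overlap, with GC highest and MG lowest. Of the chains themselves, Fga was higher in every MG than in every AG library, while GC overlapped with both flight groups for Fga. The two-sided exact permutation p was 0.1 for each pair of groups, the smallest possible. The ratio of Fgg to Fga was 0.91 ± 0.0244 in GC, 0.898 ± 0.0308 in MG and 0.922 ± 0.0138 in AG (SD, n = 3), with overlapping groups.

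**Figure D3:**
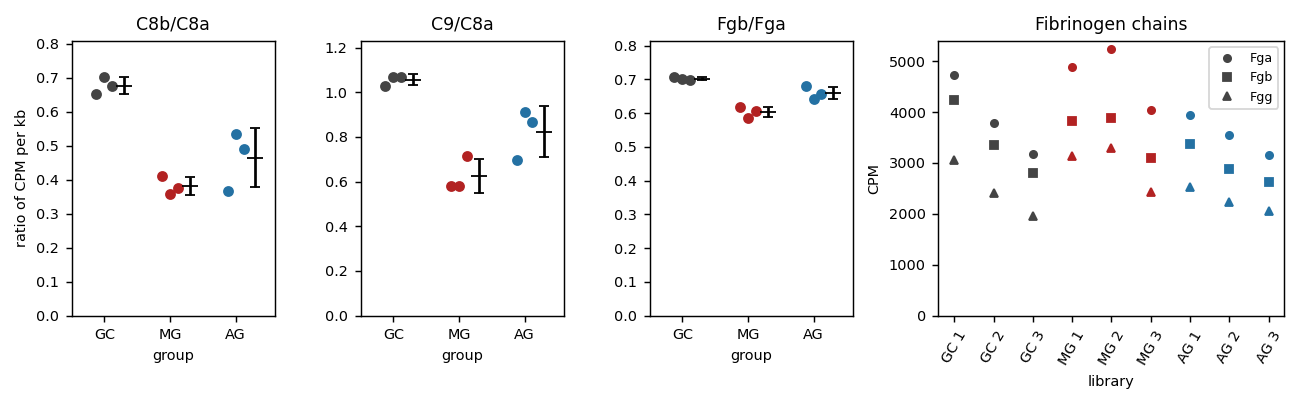
Left, ratios of CPM per kb of C8b to C8a, C9 to C8a and Fgb to Fga, with 1 point per library by group and the mean with SD (n = 3) beside them; right, CPM of the fibrinogen chains in each library. The ratios shown are highest in GC, and the 3 chains rank the libraries of a group in the same order. Other ratios taken did not share this: C8g to C8a and Fgg to Fga overlapped between groups. That of C3 to C4b was lowest in GC, with means of 7.25 in GC, 10.3 in MG and 9.91 in AG.

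Kininogen 1 (Kng1), the precursor of bradykinin, belongs to the contact system, which starts with factor XII. It was at 1480, 1451 and 1558 CPM in GC, 2000, 1954 and 1740 CPM in MG, and 1746, 1746 and 1819 CPM in AG. All flight libraries were above all GC libraries. The log2 fold change from GC to MG was 0.34 ± 0.10 (SE, n = 3 per group, edgeR adjusted p = 0.13), and DESeq2 called it. The 6 anticoagulant and fibrinolysis genes all had log2 fold changes between -0.02 and 0.09 in MG, and none was called. Plasminogen (Plg), the precursor of the fibrin-cutting protease plasmin, had the smallest p of these, with 2124 to 2268 CPM in GC and 2078 to 2628 CPM in MG, and a log2 fold change of 0.09 ± 0.11 (edgeR adjusted p = 0.79). Antithrombin (Serpinc1), the main inhibitor of thrombin, was at 1656 ± 85.3 CPM in GC, 1728 ± 13 CPM in MG and 1673 ± 181 CPM in AG (SD, n = 3). Protein C (Proc), which inactivates factors V and VIII, was at 419 ± 33.4 CPM in GC and 428 ± 5.22 CPM in MG. Protein Z (Proz), a cofactor in the inhibition of factor Xa, was 397 to 421 CPM in GC and 413 to 463 CPM in MG. Heparin cofactor II (Serpind1), an inhibitor of thrombin, was 121 to 133 CPM in GC and 125 to 146 CPM in MG, with a log2 fold change of 0.06. Only 31.4% of its exon reads were uniquely assigned and it lies within Pi4ka, which is on the other strand, so its level is uncertain.

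Between AG and GC, edgeR called 0 of the 40 genes in either direction, where 0.0% of all tested genes were called higher and 0.0% lower. At an unadjusted p below 0.05 there were 9 of the 40, 2 higher and 7 lower. DESeq2 called C6, C8b and C9 lower, and limma-voom called none. Over all genes 1199, or 10.1%, had an unadjusted p below 0.05, and DESeq2 called 54 higher and 64 lower, or 0.455% and 0.539%. AG libraries did not overlap with GC for 4 of the 40 genes with AG higher and for 9 with AG lower, against 7.21% and 7.17% of all tested genes. The 5 genes called in MG had values on the same side of 0 in AG, where the same GC libraries serve both comparisons. The log2 fold change in AG was -1.43 ± 0.41 for C4a, -0.63 ± 0.14 for C6, -0.60 ± 0.14 for C8b, -0.42 ± 0.10 for C9 and 0.29 ± 0.12 for C3. Their edgeR adjusted p-values were 0.31, 0.22, 0.22, 0.24 and 0.47. The median over the 40 genes was -0.05 in AG against 0.01 over all genes, and 35 of the 40 were within 0.3 of 0. Antiplasmin (Serpinf2), the inhibitor of plasmin, was the one anticoagulant or fibrinolysis gene whose AG libraries were all below GC, at 375 to 436 CPM against 466 to 503 CPM, with a log2 fold change of -0.27 ± 0.11 (edgeR adjusted p = 0.47).

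**Figure D4:**
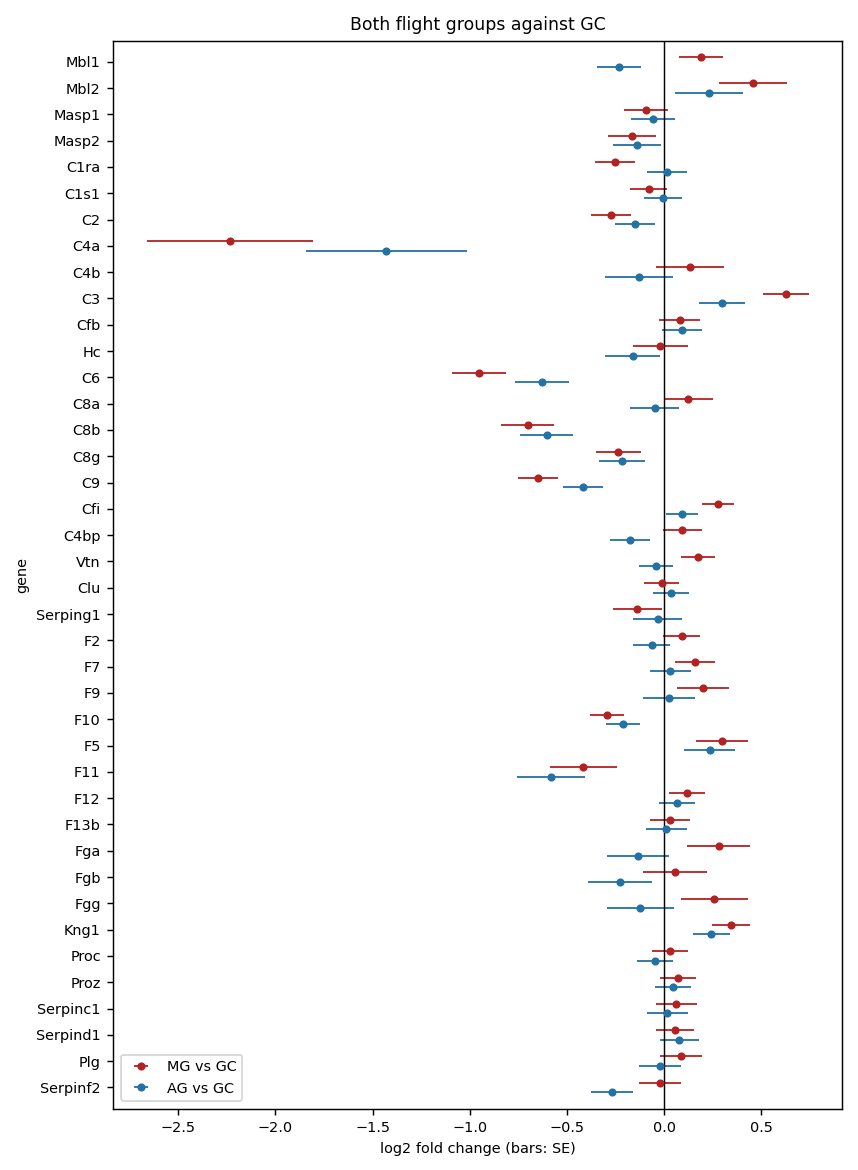
log2 fold change of each of the 40 genes in MG and in AG against the same GC libraries, with bars for the SE of the fit (n = 3 per group). C4a, C6, C8b and C9 are below 0 and C3 is above 0 in both comparisons, and most other genes lie near 0.

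Between MG and AG, edgeR again called 0 of the 40 genes, where 0.0% of all tested genes were called higher and 0.0% lower. There were 9 genes at an unadjusted p below 0.05, 6 higher and 3 lower in MG, and DESeq2 and limma-voom called none. Over all genes 1165, or 9.8%, had an unadjusted p below 0.05, limma-voom called 0.0168% higher and 0.0% lower in MG, and DESeq2 called 38 higher and 59 lower in MG, or 0.32% and 0.497%. The 2 flight groups did not overlap for 7 genes with MG higher and for 2 with MG lower, against 6.4% and 5.96% of all tested genes. A difference between the flight groups was therefore not shown for any of the 40 genes. The genes apart with MG higher included Mbl1, at 165 to 219 CPM in MG and 139 to 152 CPM in AG, with a log2 fold change of 0.42 ± 0.11 (edgeR adjusted p = 0.30). C3 was apart as well, with a log2 fold change of 0.33 ± 0.12 (edgeR adjusted p = 0.41). C9 was apart with MG lower, with a log2 fold change of -0.23 ± 0.10 (edgeR adjusted p = 0.50).

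Ribosomal RNA depletion keeps unspliced transcripts, and reads in introns could be tested for 36 of the 40 genes, with 10630 genes tested in all. C1s1, C2, Cfb and Serpind1 had too few intron reads, with 0 to 11 in a library, and each of these overlaps another annotated gene, whose part in this was not tested. C4a and C6 were called lower in MG than in GC from intron reads, and none was called higher, where 0.292% of all tested genes were called higher and 0.31% lower. Intron reads of C4a were at 31.1, 41.4 and 37.4 CPM in GC, 14.3, 19.4 and 11.8 CPM in MG, and 14.8, 19.8 and 20.6 CPM in AG. As in exons, all flight libraries were below all GC libraries. C4a fell by 1.26 ± 0.20 on the log2 scale (SE, n = 3 per group, edgeR adjusted p = 0.021). Intron reads of C6 were at 493, 553 and 586 CPM in GC, 293, 313 and 241 CPM in MG, and 517, 489 and 354 CPM in AG. Here MG was below both other groups, and AG overlapped with GC. C6 fell by 0.95 ± 0.18 in introns (edgeR adjusted p = 0.045), the same value as in exons. Leaving out GC 2, GC 3, MG 1 or MG 3 lost both calls, and scaling by the exon counts, a block for the replicate number or leaving out GC 1, MG 2 or AG 2 lost that of C6.

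The exon changes of the other 3 genes were not matched by called changes in introns. Intron reads of C8b were at 55.6, 57.6 and 60.9 CPM in GC, 76.9, 119 and 38.1 CPM in MG, and 33.8, 36.0 and 95.8 CPM in AG. The MG libraries lay on both sides of the GC libraries, with a log2 fold change of 0.43 ± 0.41 (edgeR adjusted p = 0.78), opposite in sign to the exon value of -0.70. C9 had a log2 fold change of -0.57 ± 0.26 in introns (edgeR adjusted p = 0.48) and C3 of 0.51 ± 0.43 (edgeR adjusted p = 0.74). The intron standard errors of C3, C8b and C9 were 2.61 to 3.59 times those in exons. The difference between exon and intron changes was not tested. Fgg had the highest intron value of the 36, at 0.77 ± 0.30 (edgeR adjusted p = 0.38), with 191, 201 and 143 CPM in GC and 279, 432 and 199 CPM in MG.

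**Figure D5:**
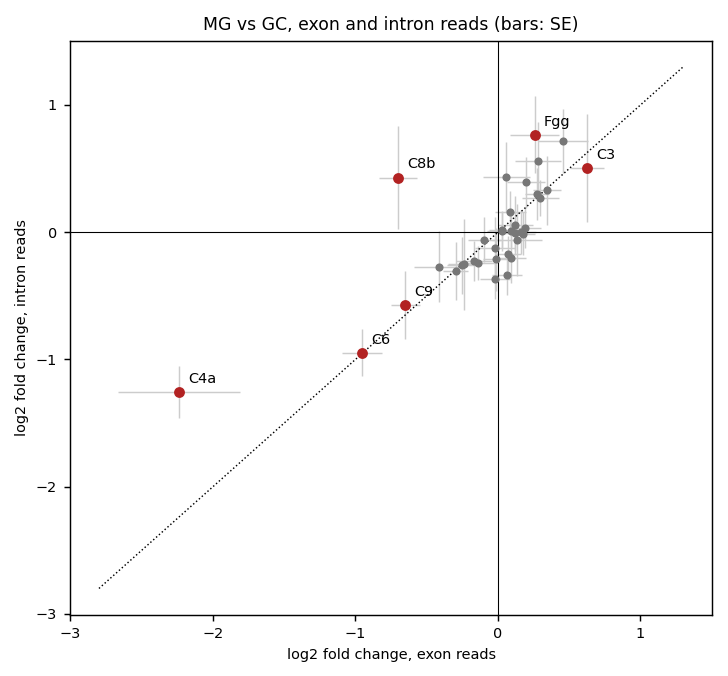
log2 fold change from GC to MG in exon reads (horizontal) and intron reads (vertical) for the 36 genes tested in both, with bars for the SE and a dotted line of equal change. C6 and C9 lie near the line, C4a lies above it at a smaller intron change, and C8b lies on the other side of 0.

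Other genes of the same systems came from lists drawn up for this comparison. Of 22 tested complement genes outside the 40, among them C1q, properdin and the complement receptors, edgeR called 0 in MG. By edgeR 2 of the 22 had an unadjusted p below 0.05, against 13.9% of all tested genes. DESeq2 and limma-voom called none of the 22. The median log2 fold change of the 22 was -0.10. Among those with the smallest p were Cd59a, which blocks the pore on the surface of host cells, at -0.30 ± 0.12 (edgeR adjusted p = 0.28), and ficolin A (Fcna) at -0.54 ± 0.30 (edgeR adjusted p = 0.47). Of 24 tested coagulation genes outside the 40, edgeR and limma-voom called 1 higher and none lower in MG, and DESeq2 called 3 higher. Over all tested genes edgeR called 0.547% higher and 0.841% lower, limma-voom 0.496% and 0.816%, and DESeq2 1.44% and 1.85%. The gene called by edgeR was Kng2, the second mouse kininogen gene, at 190, 180 and 188 CPM in GC, 286, 295 and 258 CPM in MG, and 252, 238 and 254 CPM in AG. All flight libraries were above all GC libraries, and Kng2 rose by 0.59 ± 0.09 on the log2 scale from GC to MG (SE, n = 3 per group, edgeR adjusted p = 0.012). The others that DESeq2 called were Fgl1 and Itih4, a plasma protein of the inter-alpha-trypsin inhibitor family, with a log2 fold change of 0.495 ± 0.14 (edgeR adjusted p = 0.13).

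Of 24 transcription factors and signalling genes listed as hepatocyte regulators, edgeR, DESeq2 and limma-voom called 0 in MG. By edgeR 6 of the 24 had an unadjusted p below 0.05. The share of all tested genes at that p was 13.9%. The median log2 fold change of the 24 was 0.245, and 20 of 24 were above 0, as were 6080 of the 11884 tested genes. Nr5a2, a nuclear receptor of hepatocytes, had the smallest p, at 0.45 ± 0.14 (edgeR adjusted p = 0.16). Hnf4a, the main nuclear receptor of hepatocyte identity, was at 1044, 951 and 1070 CPM in GC, 1364, 1255 and 1254 CPM in MG, and 1286.5, 1583.5 and 1240 CPM in AG. All flight libraries were above all GC libraries, and the log2 fold change in MG was 0.34 ± 0.12 (edgeR adjusted p = 0.21). Foxa3, a pioneer factor, had a log2 fold change of -0.30 ± 0.11 (edgeR adjusted p = 0.23).

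In the authors' deposited table the same 5 of the 40 genes had a false discovery rate below 0.05 between GC and MG, where it marked 1.84% of the tested genes, and none had between GC and AG or MG and AG. Its fold changes between GC and MG were -4.7 for C4a, -1.92 for C6, -1.61 for C8b, -1.56 for C9 and 1.56 for C3 in the authors' deposited table, with a minus sign for lower in MG.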

How the data were processed

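Total RNA from powdered liver was depleted of ribosomal RNA and sequenced on a NextSeq instrument, per the labels' protocols. The authors deposited 1 table with whole-number read counts per gene and library, and builds GRCm38 and mm10 are named by the submitters' processing notes. For the aligner, the counting tool and the use of strand, nothing is given in the sources used here. The deposited expression values were the counts tested, and the deposited unique intron counts were tested separately. The authors' deposited fold changes and adjusted p-values are quoted only where named. A further 99 columns with values of single libraries went unused.

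Genes were kept by edgeR's filterByExpr, scaled by TMM and fitted with edgeR's quasi-likelihood model over all 9 libraries, and a gene was called at a Benjamini-Hochberg adjusted p below 0.05 over all tested genes. The members and gene lists were chosen with earlier results of these data known. Named genes are the called members, the member with the smallest p in each role, and, from each list of other genes, those called or else the 3 with the smallest p, of which 1 is not reported here. The other members are given by their range, and those described further, such as Mbl2, C8g, F9, F5, Fgg, Serpinf2 and Serping1, and Itih4 were chosen after their values were seen. Replicate numbers were not used to pair the libraries in the reported fit. The 9 correlations of same-numbered libraries ran from -0.283 to 0.48, and those of libraries with different numbers from -0.593 to 0.385. Such correlations cannot settle whether libraries were paired. Promoters are from RefSeq on GRCm38.p6. Gene positions and the distances between genes are from the deposited region columns. Gene strands and the C4a to C4b alignment follow GENCODE M21. The alternatives tried are given in the closing section. The software was Python 3.11.15 with pandas 2.3.3, and R 4.3.3 with DESeq2 1.42.0, edgeR 4.0.16 and limma 3.58.1, beside SciPy 1.17.1 and matplotlib 3.10.9.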

Additional observations from a re-analysis of the deposited data

How the results depend on the processing

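The 5 calls in MG against GC were kept with RLE, upper quartile or no scaling, with scaling without the 50 genes with most counts, without a filter or with a mean of at least 10 counts, with limma-voom, with only the groups compared, and with unique or total exon reads. They were also kept with the replicate number as a block, which called 1 higher and 4 lower. Whether the numbers pair the libraries is not known. DESeq2 called 3 higher in MG and 3 lower in AG against GC. Without GC 1, GC 2 and MG 2 no gene was called, 0 higher and 0 lower. When 1 library at a time was left out, the number called in MG ran from 0 to 1 higher and from 0 to 4 lower. By intron reads it ran from 0 to 2, and it was 1, with C6 lost, with scaling by the exon counts and 1, with C6 lost, with the replicate block. The log2 fold change of Plg, not called, turned to -0.0061 without MG 1, and with 1 library left out it ran from -0.0061 to 0.165. In no other named gene did the direction turn. Fits with fewer libraries have fewer residual degrees of freedom. The pseudocount alternative was not run, since the table holds counts. With 6194521 to 8957331 counts per library, C4a rests on as few as 44 reads.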

Other observations

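The values in this paragraph were chosen after they were seen. C7, the terminal component between C6 and C8 in pore assembly, lies between C6 and C9 on chromosome 15 but was near the limit of detection in liver, at 1.76 to 2.52 CPM in GC, 1.13 to 2.01 CPM in MG and 1.52 to 2.98 CPM in AG. The C1q genes, which macrophages make, stood out in AG 1: C1qb was at 104 CPM there and between 31.0 and 39.2 CPM in the other 8 libraries. Properdin (Cfp), a stabiliser of the alternative pathway convertase, was at 65.1 CPM in AG 1 and between 16.0 and 19.8 CPM in the others. AG 1 was also the library with the highest macrophage markers, of which C1qb is one.

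Fgl1, a hepatocyte protein of the fibrinogen family, was at 291, 207 and 162 CPM in GC, 357, 477 and 333 CPM in MG, and 234.5, 123 and 183 CPM in AG. All MG libraries were above the GC and AG libraries, and the log2 fold change from GC to MG of 0.82 ± 0.25 was not called by edgeR (adjusted p = 0.17) but was by DESeq2. Vkorc1, the vitamin K reductase on which the vitamin K dependent factors rely, had a log2 fold change of 0.44 ± 0.18 in MG (edgeR adjusted p = 0.30), and Ggcx, the carboxylase that uses the vitamin, of 0.06 ± 0.10.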
